A study of Mus musculus with 27 samples.

Results

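Podoplanin-expressing libraries of very different identity were compared: those with high Ccl21a, the chemokine of lymph node stroma, and those with high Msln, the gene of mesothelin on mesothelial cells. Levels were counts scaled to 1000000 reads in genes per library (CPM). A library was placed on the Ccl21a-high side when its Ccl21a level was above 1000 CPM and on the Msln-high side when its Msln level was above 100 CPM. Of 27 libraries, 7 met the first condition, 4 met the second, and 16 met neither. Among these 16, Pdpn (podoplanin, also called gp38) was higher than Ptprc (CD45, the common leukocyte antigen) in 8, and Ptprc was higher than Pdpn in 8. Because the sides were defined by measured values, every difference between them is a description and carries no test.

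Fibroblastic reticular cells (FRCs) are podoplanin-positive fibroblasts that build the meshwork on which T cells move in lymph nodes. They secrete CCL21 and CCL19, which bring CCR7-bearing lymphocytes and dendritic cells in, and IL-7, which keeps T cells alive. Lymphotoxin signals through the lymphotoxin beta receptor and non-canonical NF-kB shape these cells. Mesothelial cells line the body cavities and the surface of organs such as the pancreas. They combine features of epithelium (keratins, tight junctions, an apical mucin coat) with those of mesenchyme, and they also carry podoplanin.

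The study sequenced RNA of cells sorted from islets or skin-draining lymph nodes of NOD (non-obese diabetic) mice aged 12 weeks, a strain that develops autoimmune diabetes. TG- mice were NOD/ShiLtJ, and TG+ mice were Ins2-CCL21 NOD, in which CCL21 is expressed from an insulin promoter. By label, 8 libraries came from CD45 lymphocytes of islet infiltrates, 4 from gp38-high and 8 from gp38-low FRC-like cells of islet tertiary lymphoid organs (lymphoid aggregates formed in inflamed tissue), and 7 from lymph node FRCs. Total RNA was depleted of ribosomal RNA before sequencing.

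The labels did not match the sides. The Ccl21a-high side held the libraries labelled islet CD45 TG- 1, 2 and 3, islet CD45 TG+ 3, islet gp38-low TG- 3, and islet gp38-low TG+ 1 and 3, so 4 carried the label TG- and 3 TG+. The Msln-high side held the libraries labelled islet CD45 TG+ 1, islet gp38-high TG- 1, islet gp38-low TG- 4 and lymph node FRC TG- 2. Values of the Msln-high side are given in this order throughout. Neither side therefore follows a labelled population, and no library was given another label here. Reads in genes numbered 9609428 to 19372125 per library on the Ccl21a-high side and 14215750 to 20900679 on the Msln-high side. With 3 counts as the most that an observed 0 can hide, the floor was 0.155 to 0.312 CPM on the first side and 0.144 to 0.211 CPM on the second. In sorted bulk RNA, fewer cells of a type and less RNA per cell cannot be told apart.

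No library lay near either threshold. Ccl21a was 2162 CPM at the lowest, 3582 at the median and 5685 at the highest among the 7 libraries of its side. The highest level outside was 5.28 CPM, in the library labelled islet CD45 TG+ 1. Msln was 751, 573, 829.9 and 821 CPM on its side, and at most 2.52 CPM elsewhere, in the library labelled islet gp38-low TG+ 2. On the Ccl21a-high side no library held more than 1 read of Msln. Its median was thus at least 2518-fold higher on its own side, with 3 counts per library as the floor. Later at-least folds likewise set the median of the higher side against the highest floor of the other.

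**Figure D1:**
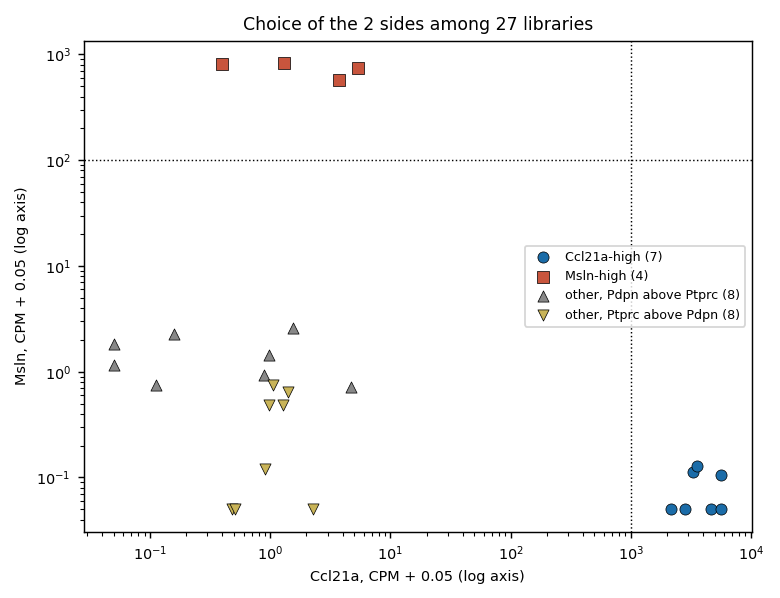
Level of Ccl21a (x axis) against Msln (y axis), both in CPM on log axes, for each of the 27 libraries, with the thresholds of 1000 and 100 CPM as dotted lines. The 7 Ccl21a-high libraries (2162 to 5685 CPM of Ccl21a) and the 4 Msln-high libraries (573 to 829.9 CPM of Msln) lie in separate corners, and the other 16 are low in both genes.

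Podoplanin was present on both sides. Pdpn was 61.7 CPM at the lowest, 93.3 at the median and 103 at the highest on the Ccl21a-high side. It was 218, 143, 182 and 187 CPM on the Msln-high side, where all 4 libraries were above all 7 of the other. The log2 difference (Ccl21a-high minus Msln-high, from TMM-scaled log2 CPM, with the SE from the spread within sides) was -0.73 ± 0.20 (n = 7 and 4). Ptprc, used to sort leukocytes, was 1.28 to 5.79 CPM on the Ccl21a-high side and 0.175 to 1.13 CPM on the Msln-high side, against 169 to 679 CPM in the 8 libraries where it exceeded Pdpn.

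The libraries of each side resembled one another. Correlations of log2 CPM over 17913 genes averaged 0.977 within the Ccl21a-high side (21 pairs) and 0.973 within the Msln-high side (6 pairs). Between the sides the mean was 0.838 (28 pairs). The Msln-high libraries were nearer to the 8 other Pdpn-bearing libraries (mean 0.905) than the Ccl21a-high libraries were (mean 0.854). These correlations are across genes, which are not independent replicates, and the side markers contribute to them.

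A gene was counted as separated when TMM-scaled log2 levels on the sides did not overlap and the log2 difference was at least 2. The CPM given for a separated gene can therefore still overlap slightly. Of 16210 genes compared, 997 (6.15%) were higher on the Ccl21a-high side and 1449 (8.94%) on the Msln-high side, and the median difference of all genes was -0.02. These shares are the background for the counts of list members below, and nothing beyond description is read from them because the rule used the same libraries. Protein-coding genes made up 79.5% of the genes higher on the Ccl21a-high side, 90.1% of those higher on the Msln-high side and 84.4% of all compared. Long intergenic non-coding RNAs made up 6.02%, 2.42% and 2.49%. Against the 8 other Pdpn-bearing libraries, 775 of the 997 genes had every Ccl21a-high library above all 8. The same held for 806 of the 1449 genes on the Msln-high side.

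**Figure D2:**
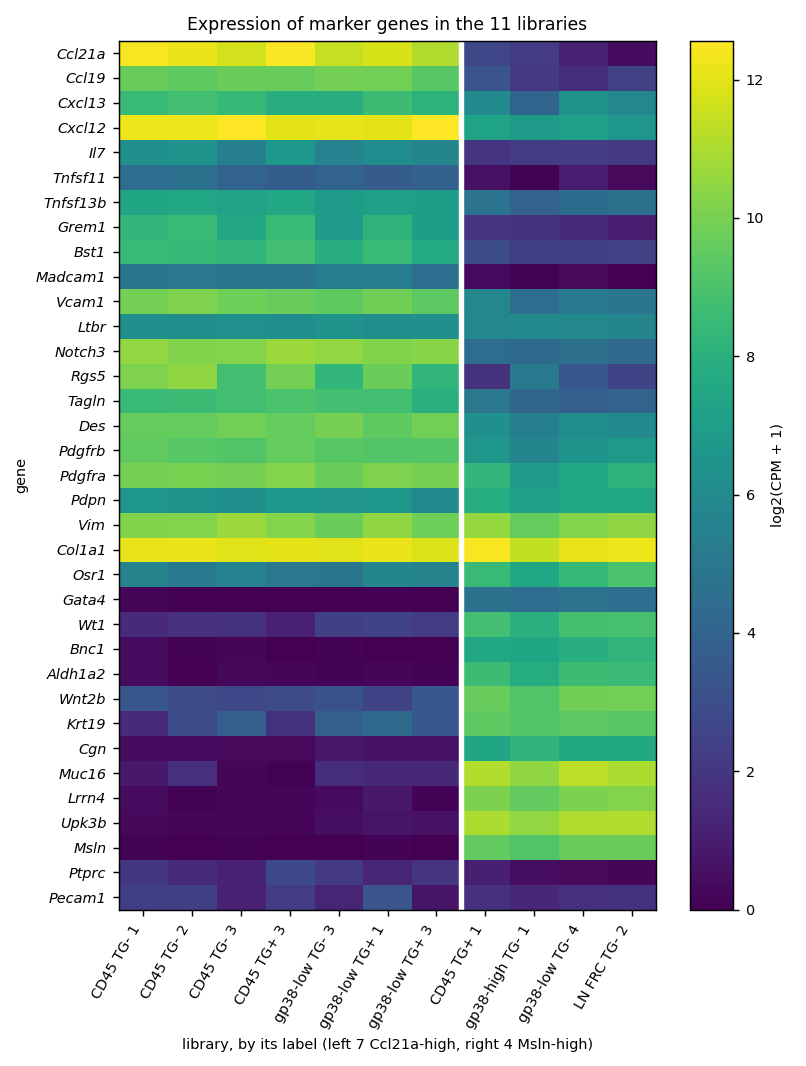
Expression as log2(CPM + 1), by colour, of 35 genes (rows) in the 7 Ccl21a-high and 4 Msln-high libraries (columns, named by label and divided by a white line). Chemokine, Notch and contractile genes were high on the left, mesothelial genes on the right, and Ptprc and Pecam1 were below 10 CPM in all 11 libraries.

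Genes of the lymphoid stromal niche were higher on the Ccl21a-high side. Of 34 listed genes 32 passed the expression filter. In this list 21 of the 32 were separated in that direction and 0 in the other, with a median log2 difference of 3.06. Ccl21a itself (ENSMUSG00000094686.1, mm10 chromosome 4, 42772860 to 42773993) defined the side, and its near-identical copies make its exact count uncertain.

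Ccl19 (ENSMUSG00000071005.7, chromosome 4, 42754525 to 42756577), the other ligand of CCR7, was 636 CPM at the lowest, 808 at the median and 984 at the highest on the Ccl21a-high side. It was 8.86, 3.21, 2.11 and 4.61 CPM on the Msln-high side, a log2 difference of 7.89 ± 0.46. The sides were far apart. Both CCR7 ligands lie on the minus strand, with start sites 17416 bases apart. Cxcl12, the ligand of CXCR4, was 4173 to 6042 CPM (median 4768) against 155, 113, 140.3 and 96.4 CPM, a difference of 5.61 ± 0.22.

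Cxcl13 (ENSMUSG00000023078.6, chromosome 5, 95956951 to 95961068), the chemokine of B cell follicles, was not restricted to the Ccl21a-high libraries. It was 227 CPM at the lowest, 345 at the median and 448 at the highest there, and 63.0, 15.4, 85.6 and 57.4 CPM on the Msln-high side. The groups did not overlap, with a difference of 3.09 ± 0.60, and the library labelled islet gp38-high TG- 1 was the low one. In the 8 other Pdpn-bearing libraries Cxcl13 was 3.32 to 11.2 CPM, so all 4 Msln-high libraries were above them.

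The 300 bases around each start site are shown for the chemokine genes Ccl21a, Ccl19 and Cxcl13 and for Upk3b, a mesothelial gene described below. Windows are from RefSeq (GRCm38.p6), from 250 bases before to 50 after the start, 5′ to 3′ on the gene's strand. Capitals mark matches on either strand to the letters GGGA and TTCC with any 2 bases between (a canonical NF-kB motif), GGAGATTT (a RelB-type motif), GGAATG (the TEAD motif) or GCGTGGG (a WT1-type motif).
Ccl21a, chr4:42773942-42774241, minus strand: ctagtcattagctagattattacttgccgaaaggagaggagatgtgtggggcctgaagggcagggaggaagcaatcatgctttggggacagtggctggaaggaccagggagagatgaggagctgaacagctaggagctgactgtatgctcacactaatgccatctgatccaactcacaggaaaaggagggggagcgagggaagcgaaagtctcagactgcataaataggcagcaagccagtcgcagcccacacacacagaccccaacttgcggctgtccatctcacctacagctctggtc
Ccl19, chr4:42756316-42756615, minus strand: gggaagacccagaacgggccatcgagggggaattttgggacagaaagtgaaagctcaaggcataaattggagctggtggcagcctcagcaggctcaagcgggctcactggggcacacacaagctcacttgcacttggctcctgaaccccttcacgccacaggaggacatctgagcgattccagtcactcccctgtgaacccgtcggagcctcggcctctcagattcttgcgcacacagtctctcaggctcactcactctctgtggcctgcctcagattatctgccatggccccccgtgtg
Cxcl13, chr5:95956689-95956988, plus strand: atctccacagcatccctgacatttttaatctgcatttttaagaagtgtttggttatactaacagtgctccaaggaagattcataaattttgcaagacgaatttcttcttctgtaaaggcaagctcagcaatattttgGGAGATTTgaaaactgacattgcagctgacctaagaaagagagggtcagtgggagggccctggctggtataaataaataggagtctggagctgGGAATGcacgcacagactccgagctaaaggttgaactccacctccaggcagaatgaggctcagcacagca
Upk3b, chr5:136038246-136038545, plus strand: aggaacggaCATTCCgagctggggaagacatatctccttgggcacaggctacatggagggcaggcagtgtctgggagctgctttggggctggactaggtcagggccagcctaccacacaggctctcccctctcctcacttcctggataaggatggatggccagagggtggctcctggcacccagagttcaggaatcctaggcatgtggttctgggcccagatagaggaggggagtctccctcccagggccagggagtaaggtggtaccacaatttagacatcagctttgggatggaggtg

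The Cxcl13 window held GGAGATTT and GGAATG on its own strand, 113 and 20 bases before the start site, and the Upk3b window held GGAATG on the other strand, 241 bases before it. None of the 4 sets of letters was in the Ccl21a and Ccl19 windows. For Ccl19 the RefSeq start differs from the annotated start site at 42756577 that was used for the distance above. Positions 42756316 to 42756577 of its window thus lie inside the gene as annotated, and the absence of matches holds for this window only. Among windows searched but not shown, that of Madcam1 held the canonical NF-kB letters on the other strand, 70 bases before the start site. The Lrrn4 window held GGAATG on its own strand, 196 bases before it, and those of Tnfsf11 and Pdpn held no match. The RelB-type letters were in 1.06% of 32851 promoter windows, the canonical NF-kB letters in 1.47%, the TEAD letters in 14.7% and the WT1-type letters in 5.04%. By gene, the RelB-type letters were found in 1.76% of the 624 genes higher on the Ccl21a-high side that had a window. The share was 1.38% of the 1011 higher on the Msln-high side and 1.08% of all 11231 compared. In the same order the shares were 2.72%, 2.37% and 1.76% for the canonical NF-kB letters, 17.1%, 19.3% and 14.8% for the TEAD letters, and 9.13%, 9.89% and 9.79% for the WT1-type letters. A match describes letters only.

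Survival and differentiation factors of lymphocytes were also higher on the Ccl21a-high side. Il7, the T cell survival cytokine, was 41.4, 67.3 and 104 CPM (lowest, median and highest) against 2.81, 3.68, 3.63 and 3.39 CPM, a difference of 4.53 ± 0.16. Tnfsf13b, which encodes the B cell survival factor BAFF, was 119 to 182 CPM against 14.3 to 26.5 CPM. Tnfsf11, which encodes RANKL, was 11.4, 14.9 and 24.7 CPM against 0.492, 0.0478, 0.947 and 0.234 CPM. Its receptor gene Tnfrsf11a was separated the other way, at 0.0638 to 1.03 CPM on the Ccl21a-high side and 5.49, 12.97, 8.42 and 6.31 CPM on the Msln-high side. The ligand and its receptor thus had opposite sides.

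Other niche genes with large differences were Grem1, Bst1 and Madcam1. Grem1, a BMP antagonist, was 116 CPM at the lowest, 284 at the median and 357 at the highest, against 2.81, 2.58, 1.95 and 1.05 CPM. Bst1, which encodes the surface enzyme BP-3, was 201, 342 and 438 CPM against 6.89, 4.07, 4.11 and 4.61 CPM. Madcam1, the addressin bound by the integrin alpha4 beta7, was 22.9, 28.1 and 37.7 CPM against at most 0.281 CPM. Spib, a transcription factor gene, was 183 to 246 CPM on the Ccl21a-high side and 8.71 to 16.6 CPM on the Msln-high side, while the 8 other Pdpn-bearing libraries held at most 1.91 CPM.

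The inflammatory chemokine genes Ccl2, Ccl7 and Ccl11 are neighbours on chromosome 11, with 10141 and 12111 bases between their start sites. Their log2 differences were 4.41 ± 0.60, 4.07 ± 0.67 and 2.93 ± 0.47. In all, 11 list members were not separated, a count that includes Il33 (186 to 339 CPM against 59.9 to 139.6 CPM) and Csf1 (326 to 516 CPM against 284 to 341 CPM). Il6, at 36.1 to 215 CPM, overlapped with the Msln-high side at 8.99 to 62.3 CPM.

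Within lymphotoxin and NF-kB signalling, the adhesion gene Vcam1 was further apart than the receptor and the non-canonical pathway genes named here. The receptor gene Ltbr was 70.0, 76.1 and 84.7 CPM (lowest, median, highest) on the Ccl21a-high side and 57.6, 62.3, 59.5 and 52.4 CPM on the Msln-high side, a difference of 0.72 ± 0.10. Map3k14, which encodes the kinase NIK, differed by 1.63 ± 0.10, Relb by 1.41 ± 0.10 and Nfkb2 by 1.74 ± 0.18. None of these reached a log2 difference of 2. Vcam1, an adhesion molecule for leukocytes, was 674, 888 and 1119 CPM against 55.3, 22.2, 33.5 and 29.2 CPM, a difference of 5.003 ± 0.33.

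Of 23 members of that list past the filter, 6 were separated higher on the Ccl21a-high side (Vcam1, Ltb, Nfkbie, Birc3, Traf1 and Birc2) and 1 on the other (Tnfrsf11a), with a median difference of 1.34. Without TMM scaling the counts were 4 and 1, and Traf1 (2.32 with it) just missed the size required. Ltb, which encodes lymphotoxin beta and is made mostly by lymphocytes, was 13.1 to 20.2 CPM against 0.211, 6.36, 1.95 and 0.934 CPM. Lta, its partner, was at most 0.105 CPM in all 11 libraries and did not pass the filter. Rela (0.25 ± 0.14) and Ikbkb (0.13 ± 0.11), of the canonical pathway, had differences near the median of all genes.

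Mesothelial genes were higher on the Msln-high side. Of 25 listed genes 24 passed the filter, 23 were separated higher on the Msln-high side and 0 on the other, with a median difference of -6.92. Msln was among them and defined the side. The exceptions were Tbx18, a transcription factor gene of the embryonic epicardium, at 18.6 to 34.0 CPM against 23.6 to 44.5 CPM, and Calb2, which encodes calretinin and had 0 reads in all 11 libraries.

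Upk3b (ENSMUSG00000042985.7, chromosome 5, 136038496 to 136046487), which encodes a uroplakin of the mesothelial surface, was 2099, 1461, 2159.6 and 2177 CPM on the Msln-high side. On the Ccl21a-high side it was 0.118 CPM at the lowest, 0.225 at the median and 0.631 at the highest. Muc16, a large apical mucin that binds mesothelin, was 2207, 1447, 2560 and 2092 CPM against at most 2.22 CPM. Lrrn4 was 1086, 758, 1081 and 1208 CPM against at most 0.788 CPM. Each of these genes was lowest in the library labelled islet gp38-high TG- 1 among the 4.

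In the 8 other Pdpn-bearing libraries the level of mesothelial genes depended on the gene. Upk3b was 4.67 to 9.82 CPM there, Muc16 0.565 to 2.86 CPM and Lrrn4 1.01 to 3.68 CPM. Aldh1a2 was 61.9 to 114 CPM and Wt1 33.7 to 73.7 CPM in those 8 libraries, levels between the sides compared here, and Efemp1, an extracellular matrix gene, was 453 to 1244 CPM against 488 to 918 CPM on the Msln-high side.

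Pkhd1l1, a gene of a large membrane protein that was in no list, had one of the largest differences of all. Its level was 1995, 1167, 1979 and 2609 CPM on the Msln-high side and at most 0.506 CPM on the other. Pcnx2, a pecanex family member, was 87.2, 83.1, 109.5 and 110.5 CPM, and no Ccl21a-high library held more than 1 read of it, so it was at least 315-fold higher. The 12 genes with the largest differences toward the Msln-high side held 8 members of the mesothelial list and Barx1 of the transcription factor list, in addition to Pkhd1l1, Pcnx2 and Pkhd1.

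Transcription factors of the coelomic lining and of visceral mesenchyme divided in both directions. Of 31 past the filter, 10 were higher on the Ccl21a-high side and 9 on the Msln-high side. Wt1, which encodes a zinc-finger regulator of the coelomic epithelium, was 444, 253, 469 and 480.2 CPM on the Msln-high side and 1.24 to 4.89 CPM (median 2.62) on the other, a difference of -6.81 ± 0.38. Bnc1, the gene of basonuclin 1, was 185, 174, 244 and 303 CPM against at most 0.337 CPM.

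The 4 genes Gata4, Isl1, Barx1 and Nkx2-3, known from organ patterning, were at 3 counts or fewer in every Ccl21a-high library. Gata4 was 25.7, 21.7, 27 and 23.0 CPM on the Msln-high side, at least 78.1-fold higher. Isl1 was 33.8, 31.6, 39.4 and 62.3 CPM, at least 117-fold higher. Barx1, a homeobox gene of foregut mesenchyme, was 99.4, 64.3, 90.9 and 107 CPM, at least 305-fold higher, and Nkx2-3 was 13.9, 13.3, 12.5 and 16.3 CPM, at least 43.6-fold higher. Nkx2-3 was higher still, at 32.5 to 62.8 CPM, in the 8 other Pdpn-bearing libraries.

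On the Ccl21a-high side the leading factors of this list were of other families. Spic (8.25 ± 0.19) and Lhx8 (7.83 ± 0.37), factor genes outside the list that are described below, had larger differences. Ebf3 was 117, 134 and 192 CPM (lowest, median, highest) against 8.58, 4.83, 10.7 and 7.18 CPM. Meox2 was 57.1, 89.9 and 124 CPM against 7.88, 5.45, 3.47 and 6.95 CPM. Foxs1 (3.97 ± 0.19), Heyl (3.86 ± 0.26) and Ebf1 (3.04 ± 0.28) followed. Gata6, a relative of Gata4, missed a difference of 2 (-1.53 ± 0.10), at 58.6 to 76.5 CPM against 193, 259, 257 and 256 CPM.

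Genes outside the lists had some of the largest differences toward the Ccl21a-high side. Dsc3, a desmosomal cadherin known from stratified epithelium, was 577, 982 and 1469 CPM (lowest, median, highest) against 2.18, 1.91, 1.74 and 0.467 CPM. Slc7a11, the cystine transporter, was 238, 685 and 1151 CPM against 2.32, 1.96, 0.632 and 0.5256 CPM. Serpina10, a protease inhibitor of coagulation, was 217, 272 and 293 CPM against at most 1.44 CPM. These 3 genes were at most 2.19 CPM in the 8 other Pdpn-bearing libraries.

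Spic, a transcription factor gene known from red pulp macrophages, was 27.8, 39.6 and 58.3 CPM, and no Msln-high library held more than 1 read, so it was at least 187-fold higher. Tacr1, the receptor of substance P, was 57.9, 68.7 and 129.8 CPM against at most 0.292 CPM. Lhx8, a LIM homeobox gene, was 24.3, 31.6 and 43.6 CPM against at most 0.234 CPM. Csf2rb2, a beta subunit of the IL-3 receptor, was 578, 728 and 877 CPM against 8.23, 3.54, 3.21 and 5.20 CPM. Aldh3a1 (7.60 ± 0.20), Akr1cl (7.83 ± 0.36) and the pseudogene Gm4759 (7.77 ± 0.43) completed the 12 largest, with Ccl21a and Ccl19. Reads of a pseudogene and of its parent gene can be exchanged in counting.

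Epithelial junction and polarity genes were mostly higher on the Msln-high side, where 24 of 33 were separated, against 2 on the Ccl21a-high side, with a median difference of -4.31. They behaved in different ways among the 4 libraries. Cgn, the tight junction protein cingulin, was 164, 288, 199 and 195 CPM against at most 0.731 CPM. Pard6b, a polarity gene, was 152, 148, 138 and 135 CPM against 3.57 to 7.86 CPM, and Cldn15 was 292, 175, 295 and 309.9 CPM against 3.82 to 9.46 CPM. Each stayed within a 2-fold range across the 4 libraries.

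Other junction genes varied widely. Cdh1, which encodes E-cadherin, was 53.2, 848, 288 and 73.6 CPM, a difference of -5.99 ± 1.003 from the Ccl21a-high side at 0.295 to 5.52 CPM. Epcam was 18.4, 224, 68.3 and 24.2 CPM, and Cldn4 was 17.5, 232, 93.8 and 17.2 CPM. The library labelled islet gp38-high TG- 1 was the highest each time and the one labelled islet gp38-low TG- 4 came next. Of the 24 separated junction genes, 16 had a range of at least 4-fold within the Msln-high side, and 21 were highest in the library labelled islet gp38-high TG- 1. None of the 23 separated mesothelial genes had such a range. In the 8 other Pdpn-bearing libraries Cdh1 was 46.3 to 625 CPM and Cldn4 13.2 to 131 CPM.

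Summed genes of pancreatic duct and of acinar cells were also highest in that library among the 4. The summed level of 14 ductal genes was 1214, 4867, 2239.6 and 1222 CPM in the 4 libraries, and 44.6 to 70.9 CPM on the Ccl21a-high side. Krt19, itself also a mesothelial gene, made up 702, 586, 664 and 629.9 CPM of these. The summed level of 16 acinar enzyme and secretory genes was 232, 858, 292 and 140.3 CPM, against 0.830 to 3.84 CPM on the Ccl21a-high side. Of 15 acinar genes past the filter, all 15 were separated, with a median difference of -6.13, or -5.48 with the 9 genes at or under 3 counts in each Ccl21a-high library set to their bound. The ductal list had 13 of 14 separated. The part of duct and acinar RNA in the differences of the Msln-high side was not tested.

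Of the 1449 genes higher on the Msln-high side, 299 (20.6%) had a range of at least 4-fold among its 4 libraries. Of the 299, 284 were highest in the library labelled islet gp38-high TG- 1. These shares were not computed over all genes compared. Among the 299 was Prox1, a transcription factor gene of lymphatic endothelium and of pancreatic duct, at 10.8, 242, 71.2 and 17.2 CPM. Pkhd1, the polycystic kidney and hepatic disease gene, was 51.1, 982, 309 and 74.1 CPM. Spp1 (osteopontin) was 95.5, 1447, 457.8 and 130.3 CPM. Cftr, the chloride channel of duct cells, differed in that its range was narrow, at 59.2, 107, 76.7 and 66.9 CPM. In the 8 other Pdpn-bearing libraries Prox1 was 8.93 to 217, Pkhd1 48.5 to 655, Spp1 128 to 1899 and Cftr 2.79 to 63.9 CPM.

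**Figure D3:**
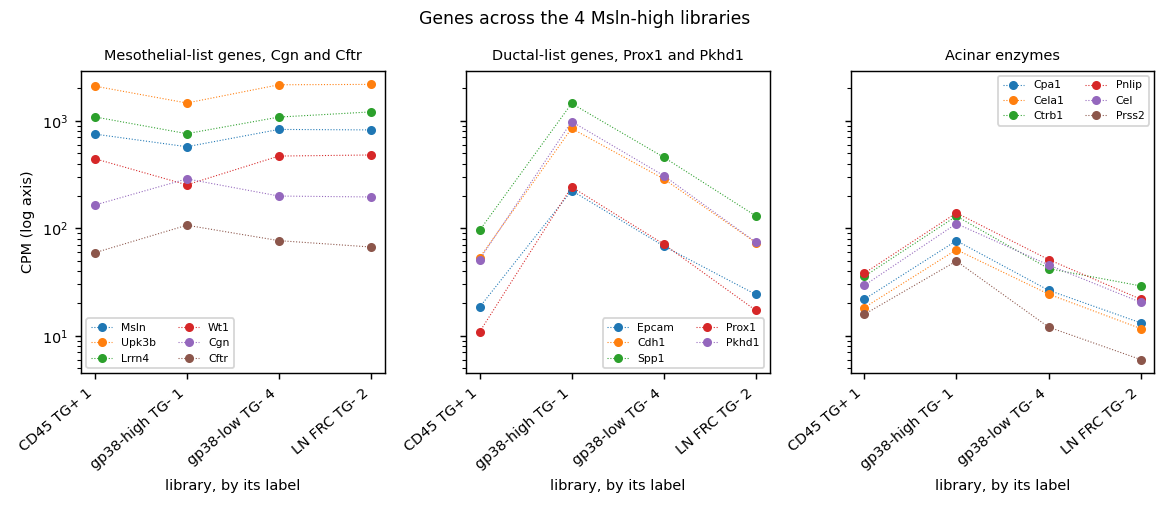
Level in CPM (log axis) of 17 genes in each of the 4 Msln-high libraries (x axis, named by label), where dotted lines only join the values of a gene. Msln, Upk3b, Lrrn4, Wt1, Cgn and Cftr stayed within a narrow range, while Epcam, Cdh1, Spp1, Prox1, Pkhd1 and the acinar enzymes were highest in the library labelled islet gp38-high TG- 1 (Cdh1 at 848 CPM against 53.2 to 288 CPM in the other three).

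Some junction genes were instead high on the Ccl21a-high side. Dsc2, which encodes another desmosomal cadherin, was 123, 249.8 and 342 CPM against 4.29, 40.6, 13.1 and 4.56 CPM. Cldn1, a claudin of tight junctions, was 107, 145 and 175 CPM against 12.7, 9.76, 11.5 and 16.5 CPM. Dsg2, the gene of desmoglein 2, overlapped, at 181 to 409 CPM against 51.1, 577, 199.5 and 78.0 CPM.

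Of 10 keratin genes past the filter, 6 were separated higher on the Msln-high side and 1 on the Ccl21a-high side. Krt8 was 251.4, 769, 369.7 and 193 CPM and Krt18, its partner in simple epithelium, 180, 646, 321 and 165 CPM, against at most 9.96 CPM for either on the Ccl21a-high side. Krt19 was 702, 586, 664 and 629.9 CPM against 1.80 to 19.6 CPM. In the 8 other Pdpn-bearing libraries Krt8 was 66.4 to 533, Krt18 61.5 to 511 and Krt19 31.9 to 139 CPM. Krt5, the keratin of basal epithelial cells, was the exception, at 0.473, 6.89 and 26.3 CPM (lowest, median, highest) on the Ccl21a-high side. Each Msln-high library held at most 1 read, with a highest floor of 0.211 CPM. The median was thus at least 32.7-fold higher, but the lowest Ccl21a-high library was near that floor.

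Genes of contractile and perivascular cells were higher on the Ccl21a-high side, 11 of 22 against 1, with a median difference of 2.35. Notch3, a receptor of pericytes and smooth muscle, was 1142, 1295 and 1632 CPM against 22.2, 18.99, 23.6 and 18.3 CPM, a difference of 6.32 ± 0.15. Rgs5 varied more, at 309, 863 and 1443 CPM against 2.60, 33.3, 9.37 and 5.02 CPM. Tagln, an actin-binding protein of smooth muscle, was 248, 426 and 505 CPM against 30.2, 16.7, 12.4 and 14.8 CPM.

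Des (desmin) was 692, 779 and 1012 CPM against 77.7, 41.2, 73.6 and 62.6 CPM. The growth factor receptor Pdgfrb differed by 3.26 ± 0.29 and Acta2 (smooth muscle actin) by 2.64 ± 0.31. Myh11, the smooth muscle myosin, overlapped, at 167 to 347 CPM against 67.6 to 195 CPM, and Cspg4, the pericyte proteoglycan NG2, was lower on the Ccl21a-high side, at 5.21 to 12.6 CPM against 15.7 to 24.4 CPM. Sncg was the 1 member separated toward the Msln-high side, with a wide range there (1.76, 19.95, 8.32 and 2.98 CPM).

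Notch pathway genes followed the same side, with 5 of 15 separated higher on the Ccl21a-high side and 0 on the other. Besides Notch3 these were the ligand gene Dll4 (26.0, 57.3 and 69.0 CPM against 2.81, 2.39, 2.26 and 1.87 CPM) and the target genes Hey1 (3.53 ± 0.23), Hey2 (4.26 ± 0.34) and Heyl. Notch1 overlapped because of the library labelled islet gp38-high TG- 1, where it was 212 CPM against 25.6, 76.2 and 27.4 CPM in the others and 159 to 224 CPM on the Ccl21a-high side. Notch2 overlapped, at 336 to 442 CPM against 439 to 698 CPM.

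Mesenchymal adhesion genes were divided. Cdh2, which encodes N-cadherin, was 23.2 to 31.7 CPM on the Ccl21a-high side and 2.32 to 4.55 CPM on the Msln-high side. Cdh4 was 63.1 to 97.7 CPM against 7.77 to 10.6 CPM, and the transcription factor genes Zeb2 (2.98 ± 0.29) and Snai2 (2.23 ± 0.24) were on the same side. Cdh6 was separated the other way (3.24, 79.6, 28.7 and 7.12 CPM against at most 0.709 CPM), with the wide range seen for duct genes. Of 14 genes of this list 5 and 2 were separated in the 2 directions. Vim (vimentin) overlapped, at 847 to 1622 CPM against 765 to 1546 CPM.

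Fibrillar collagens were shared. Of 33 interstitial matrix genes 4 were separated toward the Ccl21a-high side and 2 toward the other, with a median difference of 0.38. Col1a1 was 3863, 4241 and 4691 CPM against 5480.4, 2755, 4466 and 4788 CPM, and Col3a1, Dcn (decorin) and Sparc overlapped as well. Thbs2 (thrombospondin 2) was the clearest exception, at 558, 651 and 767 CPM against 53.5, 43.3, 50.4 and 52.3 CPM. The others were Bgn, Tnc and Postn (2.14, and 1.82 without TMM scaling, where it is no longer counted) on the Ccl21a-high side and Fbln1 and Lox on the Msln-high side.

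Basement membrane collagen IV chains divided by gene pair. Col4a1 was 1942, 2449.8 and 3023 CPM on the Ccl21a-high side and 719, 375, 551 and 496 CPM on the Msln-high side, a difference of 2.54 ± 0.25. Col4a2 was 1341, 1489 and 1690.3 CPM against 436, 229, 321 and 320 CPM, a difference of 2.55 ± 0.25. These chains form the common collagen IV network, and both genes were higher on the Ccl21a-high side.

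The chains of specialised basement membranes had the opposite direction. Col4a3 was 0.206, 0.457 and 4.33 CPM against 34.0, 38.4, 35.1 and 36.1 CPM, and Col4a4 0.624, 2.10 and 9.14 CPM against 81.7, 93.2, 99.8 and 80.5 CPM. Col4a5 was 3.84, 7.49 and 22.2 CPM against 192, 185, 232 and 242 CPM, and Col4a6 0.591, 3.70 and 8.197 CPM against 204, 156, 242 and 273 CPM. The log2 differences were -5.10, -5.08, -4.37 and -5.77, and the 4 genes had narrow ranges on the Msln-high side. In the 8 other Pdpn-bearing libraries Col4a1 was 2318 to 3664 CPM and Col4a5 122 to 214 CPM, so both kinds of chain were present there.

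The members of each pair stand head to head. In the annotation the start sites of Col4a1 and Col4a2 on chromosome 8 are 21 bases apart, those of Col4a3 and Col4a4 on chromosome 1 are 72 bases apart, and those of Col4a5 and Col4a6 on chromosome X are 1309 bases apart. The RefSeq window of Col4a2 (GRCm38.p6, 250 bases before to 50 after the start, 5′ to 3′) is shown because the start site of Col4a1 lies within it, on the other strand. Capitals mark the 78 bases that also lie in the window of Col4a1.
Col4a2, chr8:11312555-11312854, plus strand: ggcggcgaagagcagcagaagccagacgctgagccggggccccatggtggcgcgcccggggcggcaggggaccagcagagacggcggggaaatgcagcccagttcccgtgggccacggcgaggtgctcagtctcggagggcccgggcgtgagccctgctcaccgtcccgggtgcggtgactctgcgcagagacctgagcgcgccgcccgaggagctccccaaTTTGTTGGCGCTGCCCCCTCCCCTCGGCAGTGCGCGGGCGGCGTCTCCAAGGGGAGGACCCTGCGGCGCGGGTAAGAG

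Other basement membrane genes were also divided, 3 of 25 higher on the Ccl21a-high side and 7 on the other. Lama1 (laminin alpha 1) was 19.5 to 40.2 CPM against 0.813 to 2.60 CPM. Lamc3 (laminin gamma 3) was 0.709 to 27.9 CPM against 336, 204, 352 and 496 CPM. Npnt (nephronectin) was 25.04, 24.3, 35.7 and 35.2 CPM on the Msln-high side and at most 3 reads per library on the other, at least 96.4-fold higher.

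**Figure D4:**
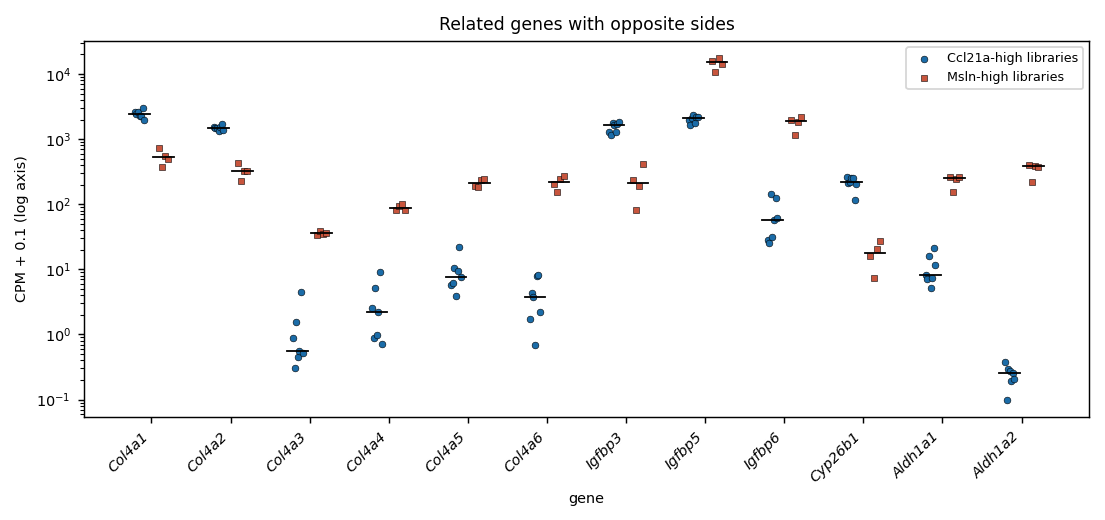
Level in CPM (log axis) of 12 genes in the 7 Ccl21a-high (circles) and 4 Msln-high (squares) libraries, where each point is a library and each bar is the median of a side. Col4a1, Col4a2, Igfbp3 and Cyp26b1 were higher in the Ccl21a-high libraries, and Col4a3 to Col4a6, Igfbp5, Igfbp6, Aldh1a1 and Aldh1a2 in the Msln-high libraries.

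Genes of the apical surface and of lubrication were mostly on the Msln-high side, 6 of 14 against 1. Podxl, the sialomucin podocalyxin, was 455, 339, 448 and 599.8 CPM against 0.886 to 4.97 CPM. Slc39a8, a zinc transporter, was 242, 173, 289 and 238 CPM against 2.01 to 5.96 CPM. Has2, a hyaluronan synthase, was the exception, at 26.96 to 66.0 CPM on the Ccl21a-high side and 4.83 to 13.8 CPM on the other. Has1 overlapped, at 12.5 to 118 CPM against 332, 54.4, 206 and 107 CPM.

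Genes for making and for breaking down retinoic acid lay on opposite sides, except Aldh1a3, another synthesis gene, which overlapped (2.84 to 11.7 CPM against 0.670 to 3.66 CPM). Aldh1a2, which encodes the enzyme that makes retinoic acid in mesothelium, was 395, 220.2, 393 and 373 CPM on the Msln-high side and at most 0.281 CPM on the other. Aldh1a1 was 266, 153, 244 and 267 CPM against 5.14 to 21.4 CPM, and the receptor gene Rarb differed by -3.42 ± 0.39. Cyp26b1, which encodes an enzyme that degrades retinoic acid, was 116, 222 and 266 CPM on the Ccl21a-high side and 15.8, 7.18, 20.2 and 27.2 CPM on the other. In this list 6 of 15 were separated toward the Msln-high side and 1, Cyp26b1, toward the Ccl21a-high side.

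Of 26 Wnt ligand, R-spondin and modulator genes, 8 were separated toward the Msln-high side and 2 toward the other. Wnt2b was 786, 569, 924 and 959.5 CPM against 4.89 to 9.78 CPM, a difference of -6.47 ± 0.27. Wnt4 was 77.8, 101.4, 103 and 134 CPM against at most 2.13 CPM, and Rspo1, a potentiator of Wnt signals, 344, 231, 331 and 402 CPM against 13.2 to 23.0 CPM. Lgr5, a receptor of R-spondins, was 12.6 to 32.6 CPM against at most 2.28 CPM. Wnt11 (2.61 ± 0.37) and Wnt6 (2.79 ± 0.42) were higher on the Ccl21a-high side. Axin2, a common Wnt target, was 24.95 to 33.1 CPM against 88.9, 61.0, 86.8 and 120.4 CPM, without overlap and with a difference of -1.26 ± 0.25.

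BMP antagonists were found on both sides. Grem1 belonged to the Ccl21a-high side, as described. Chrdl1, another antagonist, was 250.7 to 564 CPM on the Ccl21a-high side against 45.9 to 66.2 CPM, and Chrd (chordin) was 39.1 to 64.2 CPM on the Msln-high side against 4.57 to 7.72 CPM. Of the ligands, Bmp3 (4.61 ± 0.36) was higher on the Ccl21a-high side and Bmp6 (-3.29 ± 0.26) and Bmp7 (-3.61 ± 0.40) on the Msln-high side. The target gene Id1 was 7.59 to 14.7 CPM against 12.9 to 28.6 CPM and overlapped. The list had 3 of 23 separated toward the Ccl21a-high side and 5 toward the Msln-high side.

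Binding proteins of insulin-like growth factors divided in the same manner. Igfbp3 was 1165, 1635 and 1831 CPM on the Ccl21a-high side and 234, 82.9, 189 and 417 CPM on the Msln-high side. Igfbp5 was the reverse, at 15926, 10658, 17762 and 14286 CPM on the Msln-high side against 1649 to 2331 CPM. Igfbp6 was 1987, 1157, 1820 and 2155 CPM against 24.98 to 142 CPM. In the list of 12 genes, 2 were separated in each direction, and 1 toward the Ccl21a-high side and 3 toward the Msln-high side without TMM scaling.

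Complement genes were abundant on both sides. C3, the central component, was 28892, 33575 and 36555 CPM on the Ccl21a-high side and 23289.5, 12102, 26035 and 25780.2 CPM on the Msln-high side, a difference of 0.98 ± 0.32. Of 16 genes past the filter 4 were separated toward the Ccl21a-high side and 1 toward the other. The regulator gene Vtn (vitronectin) was 682, 845 and 930.5 CPM against 15.8, 7.66, 8.47 and 9.87 CPM. C4b (3.20 ± 0.34), Cfi (4.69 ± 0.39) and Clu (2.13 ± 0.39) followed, although Clu was 3363 CPM in the library labelled islet gp38-high TG- 1 and 949 to 1847 CPM in the other three. Clu was not separated without TMM scaling (1.81). The anchored inhibitor gene Cd59a was the 1 member higher on the Msln-high side, at 12.1 to 16.7 CPM against 1.67 to 3.94 CPM.

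Antigen presentation genes were expressed on both sides. The class I genes B2m, Tap1 and H2-K1 were higher in all Ccl21a-high libraries, while H2-D1, Psmb8, Psmb9, H2-Aa, H2-Ab1 and H2-Eb1 overlapped between the sides. Of 16 adhesion and MHC genes only Madcam1 and Vcam1 were separated. B2m, which encodes the class I light chain, was 1258 to 2106 CPM against 475 to 849 CPM, without overlap and with a difference of 1.55 ± 0.24. Tap1, of the peptide transporter, was 86.9 to 128.5 CPM against 37.3 to 55.4 CPM, also without overlap (1.502 ± 0.18). H2-K1, a class I gene, was 484 to 619 CPM against 250.7 to 453 CPM, without overlap and with a difference of 0.94 ± 0.25. The class II gene H2-Ab1 was 39.6 to 76.2 CPM against 24.8 to 68.7 CPM. Cd274, which encodes the checkpoint ligand PD-L1, was lower on the Ccl21a-high side, at 1.72 to 7.80 CPM against 22.7, 17.4, 22.7 and 29.5 CPM, a difference of -1.91 ± 0.32 that missed the size used for separation and reached it (-2.22) without TMM scaling.

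Transcripts that respond to tissue handling were high on both sides. Fos was 1539 to 2759.6 CPM against 2856 to 3836 CPM and Egr1 2218 to 3760.4 CPM against 2596 to 3799.8 CPM. The heat shock genes Hspa1a (2.40 ± 0.36), Hspa1b (2.39 ± 0.38) and Hsph1 (2.56 ± 0.47) were separated toward the Ccl21a-high side, and Nr4a2 toward the other. Proliferation genes were low, and Mki67 was 3.70 to 26.8 CPM against 35.4 to 42.5 CPM, without overlap, and of 24 cell cycle genes Ccnb1 was separated, toward the Msln-high side. Without TMM scaling 6 of the 24 were separated in that direction, Ccnb2, Kif23, Plk1, Kif20a and Birc5 in addition, which had differences of -1.92 to -1.78 with it.

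Of 14 islet self-antigen genes and their regulators 2 passed the filter, Deaf1 (20.7 to 28.9 CPM against 23.1 to 32.8 CPM) and Prdm1 (0.532 to 2.92 CPM against 0.144 to 0.633 CPM). Aire, which encodes a regulator of tissue antigens in the thymus, was at most 0.155 CPM on the Ccl21a-high side and 0.191 CPM on the Msln-high side, and Ins2 was at most 0.830 and 0.492 CPM. Gad2, G6pc2 and Fezf2 had 0 reads in all 11 libraries.

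**Figure D5:**
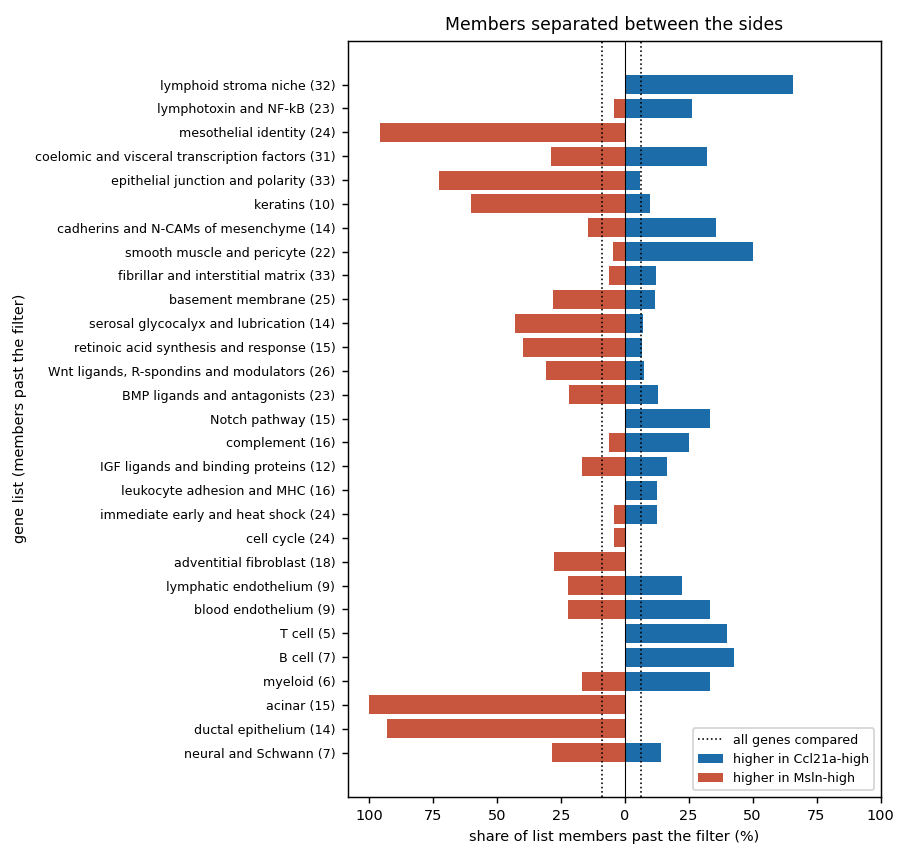
Share of the members past the filter (x axis, percent) of each gene list (y axis, with the number past the filter) that were separated higher in the Ccl21a-high libraries (blue, to the right) or the Msln-high libraries (red, to the left). Dotted lines are the shares over all 16210 genes, 6.15% and 8.94%. The lymphoid stroma niche list (21 of 32) extends to the right, and the mesothelial (23 of 24), ductal (13 of 14), acinar (15 of 15) and epithelial junction (24 of 33) lists to the left.

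Markers of other cell types were checked on both sides. The sum of 12 blood endothelial genes was 200.3 to 322 CPM on the Ccl21a-high side and 242 to 415 CPM on the Msln-high side. Of 9 past the filter 3 were separated toward the Ccl21a-high side and 2 toward the Msln-high side, while the defining genes Pecam1 (0.624 to 8.83 CPM against 1.72 to 2.63 CPM), Cdh5 (0.640 to 3.99 CPM against 0.5256 to 2.74 CPM) and Tie1 were low on both. Plvap was 132, 186 and 262 CPM on the Ccl21a-high side against 2.11 to 4.37 CPM, and Vwf was 8.83 to 21.2 CPM against 0.239 to 1.05 CPM. On the Msln-high side Kdr, the VEGF receptor, was 282, 165, 237 and 192 CPM against 0.937 to 4.22 CPM, and Esam 105, 67.1, 101.5 and 117 CPM against at most 1.14 CPM. Lymphatic Lyve1 was 0.957 to 7.08 CPM and 2.82 to 7.39 CPM, and 2 of 9 genes of that list were separated in each direction.

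Leukocyte markers were low on both sides, but many were above the floor. Of 38 T cell, B cell and myeloid genes, 22 reached 1 CPM in some library of the Ccl21a-high side and 11 in some library of the Msln-high side. On the Ccl21a-high side 2 of 5 T cell genes, 3 of 7 B cell genes and 2 of 6 myeloid genes past the filter were separated, with summed levels over the full lists of 12.3 to 25.5, 21.3 to 62.5 and 45.8 to 69.3 CPM. On the Msln-high side the sums of T and B cell genes were 11.3 to 18.3 and 6.46 to 31.4 CPM. The separated T cell genes were Trac (2.49 to 4.58 CPM against at most 0.292 CPM) and Trbc2 (0.281 to 1.89 CPM against at most 0.105 CPM). Cd3e, of the T cell receptor complex, was 0.574 to 3.13 CPM on the Ccl21a-high side and 3.49 to 9.89 CPM on the Msln-high side, against at least 132 CPM in the 8 libraries where Ptprc exceeded Pdpn. Cd3d, of the same complex, was at most 0.552 CPM on the first side and had 0 reads on the second. Tcf7, a T cell transcription factor gene, was 2.94 to 7.39 CPM against 4.74 to 8.001 CPM. The B cell gene Cd79a was 1.02 to 2.92 CPM against 1.21 to 1.87 CPM. Of the myeloid genes, Itgam was at most 0.112 CPM on the Ccl21a-high side and had 0 reads on the other, Lyz2 was 1.498 to 6.35 CPM against 0.158 to 1.62 CPM, and Cd68 was 3.13 to 9.57 CPM against 16.3 to 20.9 CPM. The myeloid sum on the Ccl21a-high side was mostly Ctss (cathepsin S), at 31.1, 46.4 and 50.02 CPM against 0.105 to 0.914 CPM, and the B cell sum held Cr2, also a gene of follicular stroma, at 7.59 to 34.0 CPM. On the Msln-high side the myeloid sum was 118 to 130.3 CPM, mostly Csf1r, the CSF1 receptor, at 103, 92.3, 105 and 102 CPM against 1.92 to 3.96 CPM. The part of leukocyte RNA in the results was not tested.

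Of 18 adventitial fibroblast genes 5 were separated toward the Msln-high side (Igfbp6, Dpp4, Sema3c, Anxa3 and Cd34) and 0 toward the other. Pi16, their common marker, overlapped, at 26.3 to 137 CPM against 41.7 to 110.3 CPM, and was 689 to 2318 CPM in the 8 other Pdpn-bearing libraries. The 5 separated genes were also expressed in those 8 libraries. Cd34 was 1003 to 1799 CPM there (536 to 995 on the Msln-high side) and Anxa3 149 to 372 CPM (93.8 to 155). Dpp4 was 207 to 406.5 CPM (297 to 367), Sema3c 485 to 973 CPM (510 to 569) and Igfbp6 407 to 1661 CPM (1157 to 2155). Of 7 neural and Schwann genes, Ngfr (139 to 217 CPM against 28.9 to 54.2 CPM) was higher on the Ccl21a-high side, and Mbp and Erbb3 on the Msln-high side. Of 4 beta cell genes past the filter, Slc2a2 and Pdx1 were separated toward the Msln-high side, with 161 and 10.8 CPM in the library labelled islet gp38-high TG- 1.

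Genotype and sort label, which the choice of libraries did not use, were compared within the Ccl21a-high side. Both come from the same labels whose sorted populations the marker levels did not follow, and genotype was not checked by any measured gene here, so the counts hold for the libraries as labelled. Within the Ccl21a-high side, 3 libraries labelled TG+ were compared with 4 labelled TG- by edgeR's quasi-likelihood test with Benjamini-Hochberg adjustment. Of 14914 genes 0 were called (0% at an adjusted p under 0.05), and 150 had an unadjusted p under 0.05. DESeq2 and limma-voom also called 0, with 146 and 287 at an unadjusted p under 0.05. These fits had no term for sort label, although the TG- libraries were mostly labelled islet CD45 and the TG+ libraries mostly islet gp38-low. With that term edgeR called 0 genes, and 374 had an unadjusted p under 0.05. In each of these fits the share of genes at an unadjusted p under 0.05 was itself below 0.05, so the tests may be conservative. Nothing in the labels ties each library to an animal of its own, so the p-values reflect spread among libraries that could be technical.

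Ccl21a, whose level chose the libraries and which is given without a test, was 5685, 3582 and 2162 CPM in the TG+ and 5610, 4632, 3323 and 2809 CPM in the TG- libraries. Ccl19 had a log2 difference (TG+ minus TG-) of -0.13 ± 0.22, Cxcl13 of -0.24 ± 0.22 and Pdpn of -0.06 ± 0.19. Tnfsf11 differed by -0.66 ± 0.19, with 11.9, 11.4 and 14.05 CPM in the TG+ libraries and 22.0, 24.7, 15.3 and 14.9 CPM in the TG- libraries. Its unadjusted p was 0.00548 and its adjusted p 0.999939 in edgeR. All 3 TG+ values were below all 4 TG- values, a difference that did not pass the adjustment. The niche list had 0 of 32 called, with a median difference of -0.15 against 0.00 over all genes.

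Within the same side, 3 libraries labelled islet gp38-low were compared with 4 labelled islet CD45, with genotype in the model. edgeR called 0 of 14914 genes (0%), with 967 at an unadjusted p under 0.05. DESeq2 called 15 genes (14 higher in the libraries labelled gp38-low, 1 lower), and limma-voom called 3, which were Lgr6, Krt5 and Sdc2. DESeq2 and limma-voom had 1022 and 3717 genes at an unadjusted p under 0.05. With each library left out in turn, edgeR had 441 to 2406 such genes. Libraries labelled gp38-low had 9609428 to 12687444 reads in genes and those labelled CD45 15668247 to 19372125, so depth moved with the label, and its part was not tested.

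The genes called by DESeq2 or limma-voom included keratins and other epithelial genes. Krt5 was 26.3, 16.2 and 6.14 CPM in the libraries labelled gp38-low (TG- 3, TG+ 1 and TG+ 3). In those labelled CD45 it was 3.04, 8.10, 6.89 and 0.473 CPM (TG- 1, 2 and 3, then TG+ 3). The groups overlapped. The log2 difference was 3.04 ± 0.58 in edgeR, with an adjusted p of 0.669. Krt8 (2.10 ± 0.47) and Lgr6 (3.18 ± 0.62) had the same adjusted p in edgeR, and the 9 keratins past this filter had a median difference of 2.38. The median over the niche list was -0.03, but single niche genes moved in both directions. Grem1 (-0.94 ± 0.29), Il7 (-0.56 ± 0.23) and Bst1 (-0.45 ± 0.21) were lower in the libraries labelled gp38-low. Madcam1 (0.39 ± 0.20) and Ccl19 (0.30 ± 0.21) were higher, and edgeR called none of these. Ccl21a, given without a test, was 2809, 3582 and 2162 CPM in those labelled gp38-low and 5610, 4632, 3323 and 5685 CPM in those labelled CD45, in the same order.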

How the data were processed

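RNA of 27 sorted mouse cell libraries was sequenced. Per the submitters' processing notes, reads were converted with bcl2fastq 2.17, trimmed with Trim Galore 0.4.3 and aligned with STAR 2.5.2a to mm10. The annotation is not given in the sources here. Deposited by the authors was, per library, a table of read counts per gene in 3 strand columns, with no normalization. The reverse-strand count (column 4) was used here, since 6.67% to 15.3% of stranded reads fell on the forward column. Lines for unmapped, multimapping, ambiguous and unassigned reads were left out of totals. Of 54446 gene identifiers 54409 matched GENCODE M21, which supplied symbols and coordinates.

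Sides were set by Ccl21a above 1000 CPM and Msln above 100 CPM. For their description, genes passing edgeR's expression filter were scaled by TMM and compared as mean log2 CPM (prior count 2). Genotype and sort label were tested within the Ccl21a-high libraries with edgeR 4.0.16 (quasi-likelihood, R 4.3.3), adjusted over all 14914 genes at 0.05. DESeq2 1.42.0 and limma 3.58.1 were alternatives, as were other scalings, filters, strand columns, thresholds and leaving out each library. On simulated data with 200 changed genes for the genotype test, 43% of genes changed by log2 1 and 86% of those changed by log2 2 were recovered, with 7.19% of calls false. Simulated counts were independent between libraries and held no sort label effect, so these shares may not hold for the measured libraries. Intervals from counts and floors cover counting error only.

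The libraries, gene lists and tests were chosen with earlier results of these data known. Named genes are a fixed set, up to 6 members per list with the largest differences, defining genes of other cell types, and the 12 genes with the largest differences in each direction at a median of 20 CPM or more. Further genes were named after their values were seen.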

Additional observations from a re-analysis of the deposited data

Results flagged for a closer look

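Among 50 groups of values of 35 genes, 3 had a single library far from the others by Dixon's ratio, and chance alone flags about 1 in 20 groups. Each was the lowest value on the Msln-high side and came from the library labelled islet gp38-high TG- 1. Upk3b was 1461.2 CPM there and 2099 to 2177 CPM in the other three. Wt1 was 253.2 CPM against 444 to 480.2 CPM. Aldh1a2 was 220.2 CPM against 373 to 395 CPM. In the same library the summed ductal genes were 4867 CPM against 1214 to 2239.6 CPM and the summed acinar genes 858 CPM against 140.3 to 292 CPM, and their part in the lower mesothelial levels was not tested.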

How the results depend on the processing

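Counts of separated genes rest on the size required. With a log2 difference of at least 1 they were 1792 (Ccl21a-high) and 2333 (Msln-high), and with at least 3 they were 508 and 927. Without TMM scaling the median of all genes moved from -0.02 to -0.34, and the counts were 828 and 1716. Leaving out each library gave 976 to 1063 and 1450 to 1573. The lower and the higher threshold tried for Ccl21a and the higher one for Msln chose the same libraries. No separated gene named by the rule changed direction in the alternatives run, but 4 genes that were not separated (Deaf1, Ighm, Cdh5 and S100b) and 6 list medians changed sign. Without TMM scaling Deaf1 moved from 0.25 to -0.07, the median of the BMP list from 0.16 to -0.17 and that of the immediate early and heat shock list from 0.18 to -0.14. That scaling also ended the separation of Traf1, Postn, Clu, Cdh13, Igfbp2, Tbx1, Pax5 and Lyz2 and gave it to Igf1, Cd274, Mrc1, Ccnb2, Kif23, Plk1, Kif20a and Birc5. A prior count of 5 ended that of Ccnb1, Fcer2a, Pax5, Trbc2, Tbx1 and Igfbp2, and unstranded counts that of Fcer2a, Stab2 and Igfbp2. The genotype test called 0 genes without each library and 2 with no filter on low counts, Nr1d2 (1.14 ± 0.21, adjusted p 0.00124) and Ighv1-18 (6.55 ± 1.33, adjusted p 0.0233, edgeR). The sort label test called 15 genes with DESeq2, 3 with limma-voom, 68 with no filter on low counts and 0 without each library. Deviations from the genotype mean had correlations of -0.13, -0.37, 0.15, -0.18 and 0.41 between same-numbered libraries of the 2 genotypes. Sort label was not removed first and some of these pairs joined different labels, so whether the numbers pair libraries cannot be decided. The fit with the replicate block called 0 genes for genotype (204 at an unadjusted p under 0.05) and 0 for sort label (802). At these depths a gene with no reads could still have up to 0.312 CPM in the shallowest library.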

Other observations

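A few genes accounted for much of each library. Gm26917, a gene model that in ribosome-depleted total RNA collects ribosomal reads, took 9.78% to 22.2% of reads in genes on the Ccl21a-high side and 5.31% to 6.82% on the Msln-high side. Apoe, the apolipoprotein E gene, took 1.06% to 1.61% of reads in genes in the Ccl21a-high libraries and 0.0675% to 0.0764% in the Msln-high libraries. C3 took 2.89% to 3.66% and 1.21% to 2.60%. These shares are values only, and their part in the other results was not tested. Leaving the 10 most abundant genes out of library sizes gave 995 and 1449 separated genes. TMM factors were computed anew there and largely make up for such a change, so this setting cannot show that part. Without TMM scaling the counts were 828 and 1716.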
